A study of Mus musculus with 10 samples.

Results

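The genes described here encode the cytosolic translation factors: the initiation factors (gene names beginning with Eif and a digit), the elongation factors (Eef and a digit), the release factor Etf1, its GTPase partner (Gspt1 or Gspt2) and the cytoplasmic poly(A) binding proteins (Pabpc and a digit). Names of this form also take in regulators of the factors, such as kinases and binding proteins, some of which lower translation. The genes were taken by name, and 65 of the 12160 genes in the deposited expression table matched. This group of genes was chosen with earlier results of these data known. Expression was measured by Smart-Seq2, a full-length cDNA protocol for small inputs, in 10 libraries of 100 sorted pancreatic cells each. Of these, 5 were tuft cells, a chemosensory epithelial cell type, and 5 were non-tuft epithelial cells. Both populations came from the pancreas of genetically wild-type mice with pancreatitis induced by caerulein, a cholecystokinin analogue. The strain is given as mixed in one sample field and as CD1, with 5 male mice, in the protocol, and each tuft library held the cells of an individual mouse. Tuft cells were gated as Cd45-negative, EpCAM-positive and Siglec f-positive, and non-tuft cells as Cd45-negative, EpCAM-positive and Siglec f-negative, so the comparison group was a mixture of every other epithelial cell in the injured gland. No uninjured mice were among the 10 libraries, and ages were not given. By the paper's account tuft and non-tuft cells were both taken from 5 mice, so the 10 libraries are not from 10 separate mice. Whether the same replicate number marks the same mouse in both populations is not stated, and the main test did not pair the libraries.

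Translation starts when the eIF4F complex binds the mRNA cap, unwinds the leader and meets a small ribosomal subunit that carries eIF2, initiator tRNA and the eIF3 scaffold. Cells tune this step mainly at a pair of points: the eIF4E binding proteins, which mTORC1 holds off by phosphorylation, block cap recognition, and the eIF2α kinases lower the supply of active eIF2 in response to stress. Acinar cells of the pancreas make digestive enzymes at a very high rate. The endoplasmic reticulum stress kinase PERK (gene Eif2ak3) helps secretory cells to match synthesis to folding capacity.

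Values are log2(RPKM + 1) after quantile normalisation, so that a difference of 1 is a doubling for well expressed genes and understates the change of genes near 0. Read counts are not in the table and the depth of each library is unknown. The tuft markers behaved as labelled: all 13 listed, with the sort marker Siglecf among them, were higher in tuft libraries. Their mean was 6.87 to 7.50 in tuft libraries, against 0.03 to 3.88 in non-tuft libraries. Non-tuft libraries 1, 2 and 5 nevertheless carried tuft marker RNA, with means of 2.38, 3.40 and 3.88. Of 18 listed acinar markers 14 were lower in tuft libraries, with means of 10.71 to 11.78 in non-tuft and 8.43, 8.32, 6.43, 9.15 and 4.40 in tuft libraries 1 to 5. Islet markers were lower for 5 of 11 genes and ductal markers for 1 of 10 (Spp1), and of the 6 listed leukocyte markers 1 (Ptprc) was higher. Ptprc encodes Cd45, for which both populations were gated as negative. Its mean was 3.45 in tuft and 0.72 in non-tuft libraries. The difference was 2.72 with an adjusted p of 0.00292 by limma. Fibroblast and endothelial markers were high in both libraries numbered 5, with means of 5.70 in non-tuft and 3.81 in tuft, and at most 0.76 in the other 8. The eosinophil markers, which would share Siglec f, were not among the listed genes. In such pools, fewer cells of a type and less RNA per cell cannot be told apart, and the part of these cell mixtures in the differences below was not tested.

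Pabpc4, Eif4ebp1, Eif4b, Eif2ak3, Eef1g and Eef1d were lower in tuft cells and Eef2k was higher, each with an adjusted p under 0.05 by limma with Benjamini-Hochberg adjustment over all genes. That is 7 of 65 translation factors (10.8%), where 11.7% of all listed genes passed in either direction. Of the 7, Eif4ebp1, Eif2ak3 and Eef2k encode regulators that lower translation, so these counts do not measure the amount of translation machinery. By direction, 6 of 65 (9.23%) were lower, against 5.55% of all genes, and 1 of 65 (1.54%) was higher, against 6.19%. With a fold change over 4 as well, Pabpc4 and Eif4ebp1 remained, both lower, where 8.31% of all genes passed that rule in either direction and 3.99% were lower by it. Without both libraries numbered 5, 3 factors were lower (Pabpc4, Eif4ebp1 and Eif4b) and 0 were higher at an adjusted p under 0.05, from 8 libraries, where 3.51% of all genes were lower and 4.36% higher.

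**Figure D1:**
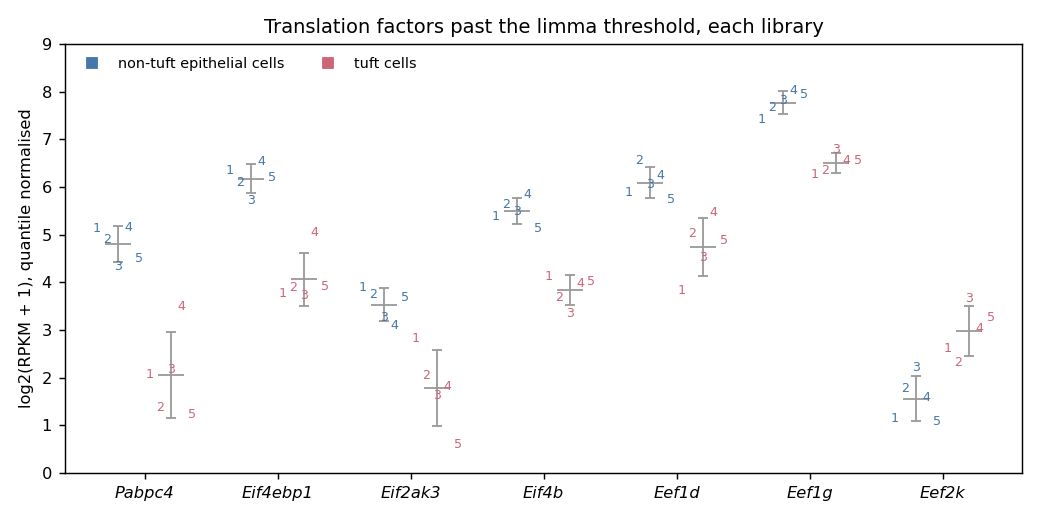
Expression of the 7 translation factor genes past the threshold, as log2(RPKM + 1), in every library: digits give the library number, blue for non-tuft epithelial cells and red for tuft cells, with grey bars for the mean and SD of 5 libraries. The groups do not overlap for any of the 7 genes, and tuft library 4 is the highest tuft library for Pabpc4 (3.50), Eif4ebp1 (5.04) and Eef1d (5.46).

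Among the 65 genes the fitted difference was below 0 for 44 and above 0 for 21, with a median of -0.34 on the log2 scale, whereas 49.1% of all listed genes were below 0 and the median over all genes was 0.02. The 76 cytosolic ribosomal protein genes lay lower still, with 74 below 0 and a median of -0.82. At the threshold 5 of them were lower (6.58%, against 5.55% of all genes) and 0 were higher (against 6.19%). An unadjusted p under 0.05 by limma was found for 35 of the 76, against 3053 of all 12160 genes. The groups did not overlap for 8 translation factors (12.3%, against 11.4% of all genes): the 7 above and Gspt1. The summed RPKM signal of the 65 genes, with the added 1 taken off, was 0.764 to 0.997% of each non-tuft library. It was 0.539 to 0.670% of each tuft library. Secretory genes, which are digestive enzyme, hormone and related transcripts, took 35.1 to 44.8% of the signal in non-tuft libraries and 0.488 to 28.2% in tuft libraries.

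**Figure D2:**
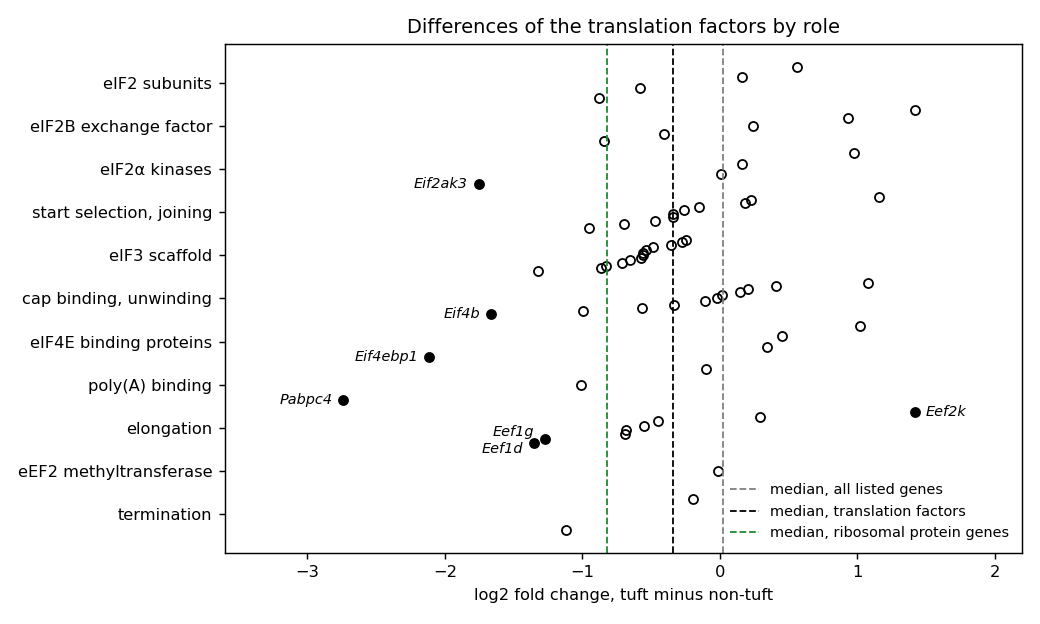
The log2 fold change (tuft minus non-tuft, horizontal axis) of all 65 translation factor genes by role (vertical axis), with filled circles for adjusted p under 0.05. Dashed lines mark the medians of all listed genes (0.02), of the translation factors (-0.34) and of the ribosomal protein genes (-0.82), and the 13 eIF3 genes all lie to the left of 0.

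Because these differences are relative, their direction as a group depended on the reference. When each library was centred on its ribosomal protein genes, the median over all genes moved from 0.02 to 0.85 and that of the translation factors to 0.49, with 2 lower (Pabpc4 and Eif4ebp1) and 5 higher (Eef2k, Eif2b3, Eif6, Eif2ak2 and Eif2s3y), where 2.35% of all genes were lower and 19.5% higher. When 45 secretory genes were removed and the rest rescaled, the median over all genes moved to -0.41 and that of the translation factors to -0.94, with 15 lower and 0 higher, where 9.76% of all genes were lower and 3.97% higher. Pabpc4 and Eif4ebp1 were the 2 named factors that were lower past the threshold under both scalings and under each of the 19 alternative settings run. Eif4b passed in 18, Eif2ak3 in 16, Eef1g in 15, Eef2k in 10 and Eef1d in 7.

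**Figure D3:**
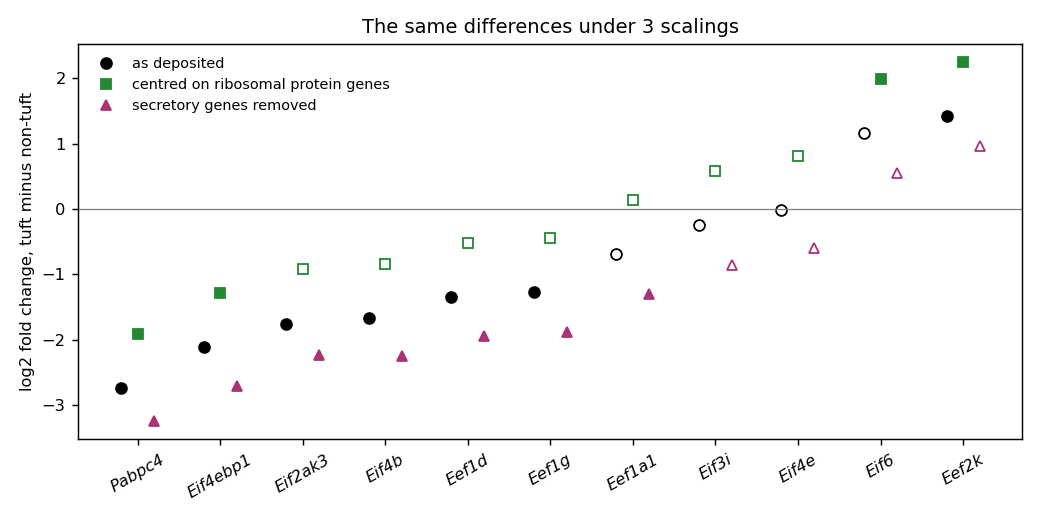
The log2 fold change (tuft minus non-tuft) of 11 translation factors as deposited (circles), centred on ribosomal protein genes (squares) and with secretory genes removed (triangles), filled where the adjusted p was under 0.05. Pabpc4 and Eif4ebp1 are filled and below 0 in all 3, while Eef1a1, Eif3i and Eif4e change sign.

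The poly(A) binding proteins coat the mRNA tail and contact eIF4G, which closes the mRNA into a loop. Pabpc4, a widely expressed relative of the major form Pabpc1, lies on chromosome 4 at chr4:122939594-122976168 of NCBIM37 (plus strand). Its values in non-tuft libraries 1 to 5 were 5.13, 4.89, 4.33, 5.15 and 4.50, and in tuft libraries 1 to 5 they were 2.07, 1.36, 2.17, 3.50 and 1.22. Every tuft library lay below every non-tuft library, and the highest tuft value was in library 4, which also had the highest acinar markers. The difference was -2.74 (SE 0.47, 95% interval -3.75 to -1.73, n = 5 per group), which is 6.67-fold lower, with an adjusted p of 0.00212 by limma. Without tuft library 4 it was -3.10 with an adjusted p of 0.000672 by limma. Pabpc1 was at 6.87 ± 0.36 in non-tuft and 5.86 ± 0.77 in tuft libraries (SD, n = 5), a difference of -1.01 with an adjusted p of 0.168 by limma, and its groups overlapped. Pabpc1l, the other listed form, known from germ cells, was at or near 0 in most libraries.

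The promoter of Pabpc4 was unusual in base composition. Of the 65 genes 51 had a RefSeq promoter (66 start sites), and 4 of the 7 genes past the threshold were among them: Pabpc4, Eif4b, Eif2ak3 and Eef2k. The sequences of the 3 with a single start follow, from 100 bases before to 20 bases after the start in RefSeq coordinates of GRCm38.p6, all on the plus strand, to show how unlike these promoters are. Pabpc4 is at chr4:123282811-123282930, Eif4b at chr15:102073673-102073792 and Eif2ak3 at chr6:70844415-70844534.
Pabpc4: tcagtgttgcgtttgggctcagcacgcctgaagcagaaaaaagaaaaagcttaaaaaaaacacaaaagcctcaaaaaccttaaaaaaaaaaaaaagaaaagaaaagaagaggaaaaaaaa
Eif4b: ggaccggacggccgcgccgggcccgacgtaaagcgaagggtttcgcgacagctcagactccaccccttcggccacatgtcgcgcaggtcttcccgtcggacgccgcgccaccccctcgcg
Eif2ak3: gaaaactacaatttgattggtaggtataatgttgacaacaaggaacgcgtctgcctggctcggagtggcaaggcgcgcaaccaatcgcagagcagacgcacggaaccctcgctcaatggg
Adenine made up 56.7% of the Pabpc4 window, more than in 99.98% of all promoters in the table (median 21.7%), against 15% for Eif4b and 29.2% for Eif2ak3. This is a description of the sequence, and no measurement here bears on its use.

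Among the genes that act at the cap, Eif4ebp1 and Eif4b were lower in tuft cells. Eif4ebp1 encodes 4E-BP1, the mTORC1-controlled repressor that competes with eIF4G for eIF4E, and lies at chr8:28370799-28386128 (NCBIM37, plus strand). Its values were 6.35, 6.09, 5.71, 6.53 and 6.20 in non-tuft libraries 1 to 5 and 3.77, 3.89, 3.72, 5.04 and 3.90 in tuft libraries 1 to 5. The groups did not overlap, and tuft library 4 again stood above the other 4 tuft libraries. The difference was -2.11 (SE 0.39, 95% interval -2.96 to -1.27, n = 5 per group) with an adjusted p of 0.00334 by limma, and -2.36 with an adjusted p of 0.00166 without tuft library 4.

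Eif4b encodes the cofactor that stimulates the eIF4A helicase and is itself a target of the S6 kinases (chr15:101904204-101927603, NCBIM37, plus strand). Its values were 5.38, 5.64, 5.48, 5.83 and 5.14 in non-tuft libraries and 4.12, 3.69, 3.35, 3.97 and 4.03 in tuft libraries, in the order of their numbers. All tuft values lay below all non-tuft values, with little spread on either side (SD 0.31 and 0.26). The difference was -1.67 (SE 0.35, n = 5 per group) with an adjusted p of 0.00723 by limma, and -0.84 with an adjusted p of 0.121 when centred on ribosomal protein genes.

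The subunits of the cap complex itself did not pass the test. Eif4e, the cap-binding subunit, was at 4.10 ± 0.48 in non-tuft and 4.08 ± 0.50 in tuft libraries (SD, n = 5), a difference of -0.02 with a 95% interval of -0.89 to 0.85. Eif4g1, the scaffold, differed by -0.11 (95% interval -1.13 to 0.92), and the helicase genes Eif4a1 and Eif4a2 by -0.33 (-1.26 to 0.60) and 0.20 (-0.68 to 1.08). Over the 11 genes of cap binding and unwinding, 1 was lower (Eif4b, 9.09%, against 5.55% of all genes) and 0 were higher (against 6.19%). Their median difference was -0.02. The other eIF4E binding proteins were low and variable: Eif4ebp2 was at 0.86 ± 0.64 in non-tuft and 1.87 ± 1.14 in tuft libraries and Eif4ebp3 at 2.90 ± 0.99 and 3.36 ± 0.91 (SD, n = 5), and neither passed the test.

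The balance of related genes was read as the difference of their log2(RPKM + 1) values within each library, so the added 1 weighs on ratios of low genes such as Eif4ebp2. Of 15 such pairs 12 could be tested, and 4 differed between the populations by an exact two-sided permutation test, each with p = 0.00794, the smallest that 252 splits allow, and 0.0238 after Benjamini-Hochberg adjustment over 12 pairs. The log2 ratio of Eif4ebp2 to Eif4ebp1 was -5.92 to -4.67 in non-tuft and -3.77 to -1.12 in tuft libraries, and that of Eif4ebp3 to Eif4ebp1 was -4.41 to -2.43 and -2.31 to 0.92. In both, the populations did not overlap and Eif4ebp1 made up a smaller part of the pair in tuft cells, although Eif4ebp2 was at the floor in tuft library 1 and in non-tuft library 2.

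The ratio of Pabpc4 to Pabpc1 was -2.58 to -1.75 in non-tuft and -5.22 to -2.67 in tuft libraries, so Pabpc4 also fell relative to the major form. The smallest of the 4 differences was that of the helicase pair: Eif4a2 to Eif4a1 was -0.80 to -0.23 in non-tuft libraries and -0.23 to 0.20 in tuft libraries, a difference of 0.53 (SE 0.14) whose nearest libraries were barely apart. Eif4e2 to Eif4e differed by 0.04 (SE 0.25) and Eif1b to Eif1 by -0.05 (SE 0.15), with p = 0.905 and p = 0.762 by the same exact permutation test. The number of pairs past the threshold was 0 without non-tuft library 1, 2, 3 or 5 in turn. With 10 added before the log it was 2, and the difference of Pabpc4 to Pabpc1 was then -0.55 and no longer past the threshold.

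**Figure D4:**
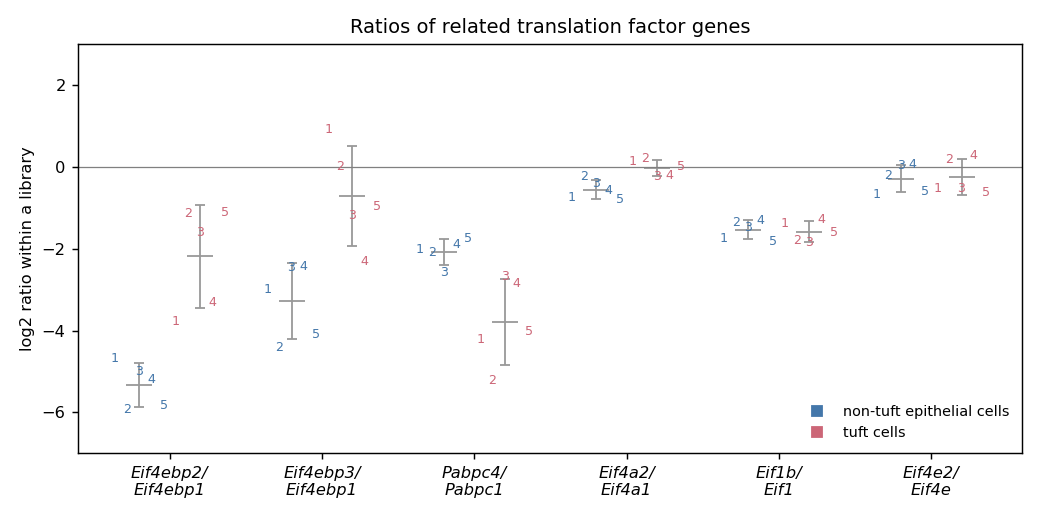
The log2 ratio of 6 pairs of related genes within each library (digits give library numbers, blue non-tuft and red tuft, grey bars mean and SD of 5). The first 4 pairs do not overlap between the populations, while Eif1b/Eif1 and Eif4e2/Eif4e lie on top of each other.

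Of the 4 eIF2α kinases PERK alone passed the test as deposited (25%, against 11.7% of all genes in either direction). Centred on ribosomal protein genes, Eif2ak2 alone passed, higher in tuft cells, where 19.5% of all genes were higher. Eif2ak3 encodes PERK, the kinase of endoplasmic reticulum stress, at chr6:70794509-70855239 (NCBIM37, plus strand). Its values were 3.89, 3.74, 3.26, 3.09 and 3.69 in non-tuft libraries and 2.82, 2.05, 1.62, 1.82 and 0.60 in tuft libraries, in the order of their numbers. The groups did not overlap, the lowest value was in tuft library 5, which also had the lowest acinar markers, and tuft library 1 was the highest of its group. The difference was -1.75 (SE 0.44, 95% interval -2.71 to -0.80, n = 5 per group) with an adjusted p of 0.0202 by limma. The adjusted p was 0.0506 without tuft library 3, 0.0699 without both libraries numbered 5 and 0.114 when centred on ribosomal protein genes.

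The other 3 kinases answer to other stresses. Eif2ak2 (PKR, activated by double-stranded RNA) differed by 0.97 with a 95% interval of -0.12 to 2.06, Eif2ak1 (HRI, the heme-regulated kinase) by 0.16 (-1.003 to 1.32) and Eif2ak4 (GCN2, the amino acid sensor) by 0.01 (-1.23 to 1.25). The ratio of Eif2ak4 to Eif2ak3 was higher in tuft cells by 1.76 (SE 0.72), with p = 0.0476 by the exact permutation test and 0.114 after adjustment.

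The substrate of these kinases and its exchange factor gave no call as deposited, although Eif2s3y and Eif2b3 were higher when centred on ribosomal protein genes and Eif2s2 was lower without secretory genes. Among eIF2 subunits Eif2s1, the α subunit that is phosphorylated, was at 5.01 ± 0.41 in non-tuft and 4.44 ± 1.07 in tuft libraries (SD, n = 5), and Eif2s2, the β subunit, at 6.03 ± 0.47 and 5.16 ± 0.63, a difference of -0.88 with an adjusted p of 0.218 by limma. The γ subunit is made from an X-linked and a Y-linked gene, Eif2s3x and Eif2s3y, neither of which passed. The 5 genes of eIF2B, the exchange factor that recharges eIF2, ranged from -0.84 (Eif2b1) to 1.42 (Eif2b3). Eif2b3 was 3.51 to 4.03 in tuft libraries but 0.35 to 3.72 in non-tuft libraries, and its adjusted p was 0.152 by limma.

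Chac1, Asns, Dnajc3 and Trib3 were lower in tuft cells, out of a list of 10 genes of eIF2α phosphorylation and the response to it. The list also holds regulators of that phosphorylation, such as Dnajc3, so it is not a set of response genes alone. The list was chosen with earlier results of these data known. Of its members 4 were lower (40%, against 5.55% of all genes), 0 were higher (against 6.19%) and all 10 differences were below 0, with a median of -1.85, where the median of all listed genes was 0.02. Chac1, a glutathione-degrading enzyme induced by ATF4, was at 5.82, 5.44, 4.89, 5.11 and 2.67 in non-tuft libraries and was listed at 0 in all 5 tuft libraries. Asns, asparagine synthetase, another ATF4 target, was 6.31 to 7.64 in non-tuft and 2.81 to 5.41 in tuft libraries, a difference of -2.46 with an adjusted p of 0.00733 by limma.

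Dnajc3, the luminal cochaperone also known as an inhibitor of PERK and PKR, was 7.24 to 8.45 in non-tuft and 4.57 to 6.09 in tuft libraries, a difference of -2.22 with an adjusted p of 0.00428 by limma. Trib3, a pseudokinase induced by CHOP and ATF4, was listed at 0 in all 5 tuft libraries and in 1 non-tuft library, and was 2.29 to 3.88 in the other 4. The Trib3 call was lost when any 1 of non-tuft libraries 1, 3 and 4 or of tuft libraries 2 to 5 was left out, with an adjusted p up to 0.0566. Centred on ribosomal protein genes, the calls of Asns (adjusted p 0.0885 by limma), Dnajc3 (0.0508) and Trib3 were lost, and Chac1 still passed. None of the 3 transcription factors passed the test: Atf5 differed by -2.24 with an adjusted p of 0.0516, Atf4 by -0.86 with an adjusted p of 0.222 and Ddit3 (CHOP) by -1.49 with an adjusted p of 0.168, all by limma. Eif4ebp1 is itself known as an ATF4 target. Acinar markers were lower in the same tuft libraries, and their part in this was not tested.

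**Figure D5:**
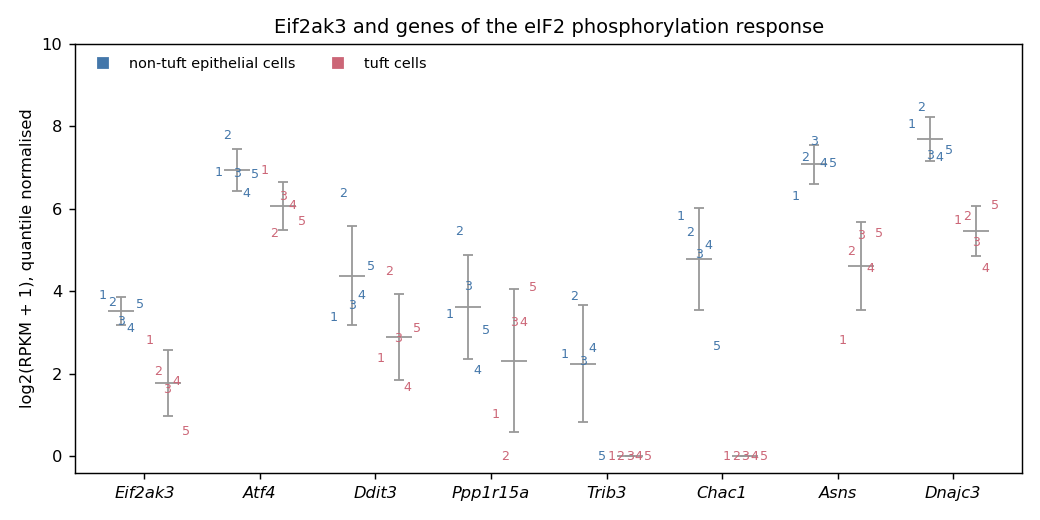
Expression as log2(RPKM + 1) of Eif2ak3 and of 7 genes of eIF2 phosphorylation and the response to it in every library. Digits give library numbers, blue non-tuft and red tuft, with grey bars for the mean and SD of 5. Chac1 and Trib3 lie at 0 in all 5 tuft libraries, Asns and Dnajc3 do not overlap between the populations, and Atf4, Ddit3 and Ppp1r15a do.

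Of the 8 elongation genes 2 were lower (25%, against 5.55% of all genes) and 1 was higher (12.5%, against 6.19%). Their median difference was -0.62. The 8 genes include Eef2k, which encodes a kinase that slows elongation. Eef1a1, which delivers aminoacyl-tRNA, was the highest of the 65 genes in both populations, at 10.06 ± 0.48 in non-tuft and 9.37 ± 0.42 in tuft libraries (SD, n = 5). It ranked 42nd and 68th of all listed genes by mean RPKM-based level, and its difference of -0.69 had an adjusted p of 0.303 by limma. How reads of its processed pseudogene copies were assigned is not known, so its level is uncertain. Eef2, the translocase, differed by -0.55 with a 95% interval of -1.47 to 0.37, and Eif5a, which helps the ribosome through stalls, by -0.68 (-1.54 to 0.18).

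The exchange complex that recharges eEF1A moved in 2 of its subunits. Eef1g, its structural γ subunit (chr19:9041531-9052969, NCBIM37, plus strand), was at 7.41, 7.66, 7.80, 8.01 and 7.95 in non-tuft libraries 1 to 5 and at 6.26, 6.34, 6.79, 6.55 and 6.55 in tuft libraries 1 to 5. All 5 tuft libraries lay below the lowest non-tuft library. The difference was -1.27 (SE 0.34, n = 5 per group) with an adjusted p of 0.0270 by limma, and the adjusted p was 0.0567 without tuft library 2, 0.0513 without tuft library 5 and 0.0625 without both libraries numbered 5.

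Eef1d, the δ exchange subunit (chr15:75725226-75739986, NCBIM37, minus strand), was at 5.88, 6.56, 6.04, 6.24 and 5.74 in non-tuft and at 3.83, 5.02, 4.52, 5.46 and 4.87 in tuft libraries. Library 1 was the lowest tuft library and library 4 the highest, and the groups did not overlap. The difference was -1.35 (SE 0.40, n = 5 per group) with an adjusted p of 0.0449 by limma. This call was lost when any 1 of non-tuft libraries 1 to 4 or of tuft libraries 1, 2, 3 and 5 was left out, with adjusted p values up to 0.0959. Eef1b2, the β subunit, differed by -0.45 with an adjusted p of 0.521 by limma and overlapped.

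Eef2k was the single factor higher in tuft cells in the values as deposited. It encodes the calcium and calmodulin dependent kinase that inactivates eEF2 and slows elongation, at chr7:127986345-128050733 (NCBIM37, plus strand). Its values were 1.14, 1.77, 2.22, 1.59 and 1.07 in non-tuft libraries and 2.62, 2.31, 3.66, 3.03 and 3.26 in tuft libraries, in the order of their numbers. These are low levels, but the lowest tuft library lay above the highest non-tuft library. The difference was 1.42 (SE 0.41, 95% interval 0.54 to 2.29, n = 5 per group) with an adjusted p of 0.0374 by limma.

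The Eef2k call was lost when any 1 of non-tuft libraries 1, 4 and 5 or of tuft libraries 3, 4 and 5 was left out, with a difference of 1.25 at the lowest and an adjusted p up to 0.0931. Without both libraries numbered 5 its adjusted p was 0.130. An antisense transcript shares 101 of its 7166 annotated exon bases (1.41%), a second annotated gene of the same name and strand shares 1781 of them (24.9%), and the library protocol does not mark strand. Eef2kmt, a methyltransferase of eEF2 itself, differed by -0.01 (95% interval -0.97 to 0.94).

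Eef2k has 3 start sites in RefSeq. The window of the last, at chr7:120851089-120851208 of GRCm38.p6 (plus strand), is shown because it holds a C/EBP-ATF response element, the motif TGATGNAA read on either strand, in capitals here on the reverse strand, 84 bases before the start.
Eef2k, last start: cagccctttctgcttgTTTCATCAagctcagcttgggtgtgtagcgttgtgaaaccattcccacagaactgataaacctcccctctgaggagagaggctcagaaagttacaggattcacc
That motif was in 3.97% of 32851 promoters of the same length, and among the 65 genes in those of Eef2k and Eif2s3x. The unfolded protein response element TGACGTG was in 2.01% of all promoters and in that of Eif3a, and neither the endoplasmic reticulum stress element, which is CCAAT and CCACG at a fixed spacing (0.119%), nor the octamer ATTTGCAT (1.74%) was found in these windows of the 51 genes.

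The eIF3 scaffold, the largest initiation factor, gave no call but leaned one way. All 13 genes were below 0 (against 49.1% of all genes), from -1.32 (Eif3j1) to -0.25 (Eif3i), with a median of -0.56. An unadjusted p under 0.05 by limma was found for 3 of the 13, against 3053 of all 12160 genes. Eif3j1, a loosely bound subunit, was at 5.10, 6.16, 3.61, 4.99 and 4.58 in non-tuft and 3.66, 3.98, 3.83, 3.43 and 2.93 in tuft libraries, with an adjusted p of 0.0977 by limma. Eif3i, the highest, was 6.83 to 7.50 and 6.83 to 7.13. The lean was relative: centred on ribosomal protein genes, 10 of 13 lay above 0 with a median of 0.27. Without secretory genes 3 of 13 passed as lower (Eif3a, Eif3e and Eif3j1), where 9.76% of all genes did. Their median was then -1.17 over the 13, where that of all genes was -0.41.

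Start codon selection and subunit joining gave no call among 10 genes as deposited, with a median of -0.30 (Eif6 passed as higher when centred on ribosomal protein genes and Eif1a as lower without secretory genes). Eif1, the guardian of start codon choice, was the highest at 7.33 ± 0.26 in non-tuft and 7.55 ± 0.19 in tuft libraries (SD, n = 5). Eif6, which keeps the large subunit from joining too early, was at 4.01, 5.52, 6.38, 5.43 and 5.94 in non-tuft and 6.36, 5.78, 6.64, 7.10 and 7.17 in tuft libraries, a difference of 1.15 with an adjusted p of 0.161 by limma. In termination, Gspt1 (eRF3a) was at 5.04 ± 0.41 in non-tuft and 3.92 ± 0.46 in tuft libraries (SD, n = 5) without overlap, a difference of -1.12 with an adjusted p of 0.0827, and Etf1 (eRF1) differed by -0.19 with an adjusted p of 0.824, both by limma.

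Many translation factor and ribosomal protein mRNAs begin with a terminal oligopyrimidine tract (TOP), which ties their translation to mTORC1 through LARP1. Of the 65 genes 10 are known as such, and 3 of them were lower (Eif4b, Eef1g and Eef1d; 30%, against 5.55% of all genes) and 0 higher (against 6.19%), with all 10 below 0 and a median of -0.78. The other 55 had a median of -0.25, with 3 lower (5.45%) and 1 higher (1.82%). Centred on ribosomal protein genes, the median of the 10 was 0.05. A C followed by at least 4 pyrimidines at the RefSeq start was present at 2 of the 66 starts of these genes (3.03%), at 2.51% of all starts and at 19.4% of those of ribosomal protein genes. Both are shown with 15 bases on each side of the boundary and the tract in capitals, Eif2s3x from the minus strand of chrX:94212637-94212666 and Eif3f from the plus strand of chr7:108934400-108934429 (GRCm38.p6).
Eif2s3x: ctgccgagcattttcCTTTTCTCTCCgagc
Eif3f: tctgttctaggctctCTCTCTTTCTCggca
Eif3f, one of the 10, differed by -0.49 and Eif2s3x by 0.16, and neither passed the test. Of the 10 known TOP genes 5 had a RefSeq promoter, and Eif3f alone of these carried the tract. Most starts of ribosomal protein genes lacked it too, so its absence at a RefSeq start does not show that an mRNA lacks one.

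Other genes of the translation pathway were read from 5 lists, of which 83 of 86 genes were listed. In all, 10 were lower (12.05%, against 5.55% of all genes) and 1 was higher (1.20%, against 6.19%), with a median of -0.25. Of the 10 lower, 4 were Chac1, Asns, Dnajc3 and Trib3. Of 21 initiation partners 1 was lower (4.76%), Mknk1, and 0 were higher. Mknk1 encodes a kinase that phosphorylates eIF4E. Its values were 4.12 to 4.82 in non-tuft and 0 to 2.97 in tuft libraries. The difference was -2.56 with an adjusted p of 0.00810 by limma. Mknk2, which encodes a related eIF4E kinase, went the other way by 0.58 and did not pass (adjusted p 0.432 by limma). The Mknk1 call was lost with 0.1 added before the log, centred on ribosomal protein genes and without both libraries numbered 5 (adjusted p up to 0.0723 by limma).

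Of 27 mTORC1 pathway genes 0 were higher (against 6.19% of all genes) and 3 were lower (11.1%, against 5.55%). They were Ddit4l, an mTORC1 inhibitor, at -3.01, Deptor, an mTOR-binding inhibitor, at -1.62, and Larp1, the TOP mRNA binding repressor, at -1.67, with adjusted p values of 0.00158, 0.0232 and 0.0156 by limma. Ddit4l was listed at 0 in tuft libraries 1 to 4, and the Deptor call was lost without tuft library 4 (adjusted p 0.0518 by limma). The Deptor call was also lost when centred on ribosomal protein genes (adjusted p 0.296 by limma). That of Larp1 was lost when centred in this way and without both libraries numbered 5 (adjusted p up to 0.135 by limma). The groups did not overlap for 6 of the 27 (22.2%, against 11.4% of all genes), 4 lower and 2 higher in tuft cells. The 2 higher did not pass the test: Lamtor1 differed by 1.26 (adjusted p 0.0613 by limma) and Lamtor5 by 0.76 (0.209). Among 14 elongation and termination partners 1 was lower (7.14%, against 5.55% of all genes) and 1 was higher (7.14%, against 6.19%). The ribosome rescue factor Pelo was lower by 2.11 on the log2 scale, at the edge of the threshold. Eefsec, the selenocysteine elongation factor, was higher by 1.71 with an adjusted p of 0.0396 by limma. Among 11 mitochondrial translation factors Guf1 was lower (9.09%, against 5.55% of all genes) and 0 were higher (against 6.19%). Guf1 differed by -2.34 with an adjusted p of 0.0341 by limma. The Pelo call was lost when any 1 of non-tuft libraries 1 to 4 or of tuft libraries 2, 3 and 5 was left out (adjusted p up to 0.130). That of Eefsec was lost without any 1 of non-tuft libraries 2, 4 and 5 or of tuft libraries 2 to 5 (up to 0.0947), and that of Guf1 without any 1 of non-tuft libraries 1, 2, 4 and 5 or of tuft libraries 1, 3, 4 and 5 (up to 0.0865).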

How the data were processed

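The deposited table holds log2(RPKM + 1) values that the authors made from single-end Smart-Seq2 reads mapped to mm9 (NCBIM37) with HISAT2, quantified with StringTie, filtered on RPKM variance and quantile normalised across the 10 libraries. Deposited columns with the authors' own fold ratio and p-value hold their comparison and were not used. No read counts are in the table, so no depth or counting interval is given, and 5 libraries per group limit the precision. The p-values measure the spread between these libraries.

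Translation factors were taken by name (65 of 12160 genes). The members and lists were chosen with earlier results of these data known. All genes were fitted with limma 3.58.1 (R 4.3.3, lmFit and eBayes, no covariate), with Benjamini-Hochberg adjustment over 12160 genes and a threshold of 0.05. Scripts were tested on simulated data, with 50 genes picked from all listed genes changed by each of several amounts. Of those changed by 1 on the log2 scale 0% passed the threshold, of those changed by 2 38%, and of those changed by 3 80%. Far fewer genes were changed than the 1428 that passed in the data, which made the adjustment stricter. The median SD in tuft and non-tuft libraries was 0.71 and 0.90 over all genes, and 0.55 and 0.48 over the translation factors. These shares are therefore not the power for the 65 genes. A gene that did not pass the test is still not shown to be unchanged. The genes named in full were a fixed list of regulators and core factors, up to 12 per direction by p among those past the threshold, and the highest gene of each role, 29 in all. Eef1a2, Eif5a2 and Gspt2 were not among the listed genes. Others with values (Eif3j1, Eif2b1, Eif2b3, Eef1b2, Eif3f, Eif4a3, Eif2b4, Pabpc1l, Eif2s3x, and pathway genes) were named after their values were seen. Ratios were tested with exact two-sided permutation tests (scipy 1.17.1) over 252 splits. Gene positions (63 of 65 matched) come from GENCODE annotation of NCBIM37, and promoter sequences from RefSeq on GRCm38.p6, without conversion between builds. Reads split between near-identical copies are a limit for Eef1a1 and other families with pseudogenes. Alternatives were another pseudocount (0.1 or 10), a mean log2 value of at least 2, a replicate block, limma's trend and robust options, scaling on ribosomal protein genes or without 45 secretory genes, stricter thresholds and each library left out. Setting each library's floor to 0 and leaving out both libraries numbered 5 were added after seeing the data.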

Additional observations from a re-analysis of the deposited data

Results flagged for a closer look

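Of the 29 named genes, 82 groups of 5 libraries (per gene and population, and per tested ratio) were checked for a single library far from the others by Dixon's criterion, and 3 were found (3.66%), where chance gives about 1 in 20. Eif4ebp1 in tuft library 4 was at 5.04, above the other tuft libraries at 3.72 to 3.90, and tuft library 4 also had the highest acinar markers of its group. Pabpc1 in non-tuft library 5 was at 6.25, below the other non-tuft libraries at 6.92 to 7.15, and that library carried fibroblast and endothelial markers. Eif2b2 in non-tuft library 1 was at 3.24, below the other non-tuft libraries at 5.14 to 5.49. The part of the cell mixtures in these values was not tested.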

How the results depend on the processing

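The number of translation factors lower in tuft cells, 6, was 2 centred on ribosomal protein genes, 15 without secretory genes, 3 without both libraries numbered 5, 2 with a fold over 4, 3 at an adjusted p under 0.01 and 4 to 6 with each library left out. The number higher, 1, was 5 centred on ribosomal protein genes and 0 without secretory genes, with limma's trend and robust options, without both libraries numbered 5, with a fold over 4 and at an adjusted p under 0.01. It was 0 to 1 with each library left out, reaching 0 when non-tuft library 1, 4 or 5 or, among tuft libraries, 3, 4 or 5 was missing. Their median, -0.34, was 0.49 centred on ribosomal protein genes and -0.94 without secretory genes, and that of the 10 TOP genes, -0.78, was 0.050 and -1.39. The other pathway genes lower, 10, were 2 centred on ribosomal protein genes, 20 without secretory genes, 5 at an adjusted p under 0.01 and 7 to 10 with each library left out. Those higher, 1, were 13 centred on ribosomal protein genes, 3 with 10 added, 2 with the filter on the mean, 0 with 0.1 added, without secretory genes, without both libraries numbered 5, with a fold over 4 and at an adjusted p under 0.01, and 0 to 2 with each library left out. The causes of these changes were not tested.

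With the replicate number as a block, 5 translation factors were lower and 1 higher (Eef1d had an adjusted p of 0.0536 by limma). With this block, 10 other pathway genes were lower and 0 higher. The calls of Eefsec (adjusted p 0.0604 by limma) and Guf1 (0.0502) were lost. Deviations of same-numbered libraries correlated at 0.149, 0.0916, 0.124, 0.0789 and 0.238, and 4 of 5 tuft libraries matched best with their own number, a hint from the data and not from the design. The 4 ratios past the threshold were 2 with 10 added before the log and 0 to 4 with each library left out. They were 0 in the paired test with the block, where 5 pairs allow no p below 0.0625.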

Other observations

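The spread between libraries was uneven for some factors that did not pass the test. Eif2b1 was at 4.22 to 4.44 in the 5 non-tuft libraries but at 1.49 to 5.12 in the tuft libraries, and Eif2b4 was at 4.35 to 4.48 in tuft but at 2.83 to 4.78 in non-tuft libraries. Eif4a3, the helicase of the exon junction complex, was at the floor in non-tuft library 2, at 3.24 to 5.94 in the other 4 and at 2.61 to 5.98 in the tuft libraries. These genes were picked after their values were seen, and no difference in spread was tested.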
